A study of Mus musculus with 8 samples.

Results

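The primitive endoderm genes described here are 10 genes of the extraembryonic lineage that lies beside the epiblast in the early mouse embryo: the transcription factors Gata4, Gata6, Sox17 and Sox7, the endocytic adaptor Dab2, the laminin chains Lama1, Lamb1 and Lamc1, and the collagen IV chains Col4a1 and Col4a2. They were taken by symbol from the platform annotation, which gives them 14 of the 25697 probes of an Illumina bead array. Total RNA was measured in 8 mouse embryonic stem cell lines, with 1 array per line. The tNT group holds 6 lines, named tetraploid nuclear transfer and labelled as tetraploid. The design text gives them p17, p19, p25, p29, p18 and p25 in the order of lines 1 to 6, taken here to be passage numbers, which count how often a culture has been divided. The NT group holds 2 lines, named nuclear transfer and labelled as not tetraploid, with no passage given. All 8 lines carry the label of a mixed strain, and double sedimentation is noted for each of them. Neither the donor cells nor the culture conditions are given in the sources used here. Each line is a single culture sample, so the p-values below measure the spread between these lines only.

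Primitive endoderm arises in the inner cell mass, where cells that keep Nanog become epiblast and cells that keep Gata6 under Fgf and Erk signalling become primitive endoderm. Gata6 acts at the head of the lineage, Gata4, Sox17 and Sox7 follow it, and the mature cells take up proteins through Dab2 and lay down a basement membrane of laminin and collagen IV. Embryonic stem cells correspond to the epiblast side, and cultures of them can hold some cells that have turned towards primitive endoderm. The laminin and collagen IV chains are also made by many other cells, including the epiblast and fibroblasts, and Sox7 and Sox17 are also known from endothelium.

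Values are bead intensities on the log2 scale after background correction and quantile normalization, and a probe was counted as above background on an array where its detection p was under 0.01. The lowest value above background was between 5.34 and 5.50 over the 8 arrays, and between 10449 and 10969 probes were above background on each. A gene was tested where a probe was above background on at least 2 arrays, and its brightest such probe stood for it. Of the 10 members, 7 entered the tests among 8816 genes or unnamed probes: Gata6, Sox7, Dab2, Lama1, Lamc1, Col4a1 and Col4a2. None of the 7 entered through arrays of 1 group alone. Gata4 was above background on 1 array, and Sox17 and Lamb1 on none.

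The label of the set was checked against its members one by one. Lamc1, Col4a1, Lama1, Col4a2 and 1 probe of Dab2 were above background on all 8 arrays, but laminin and collagen IV are not particular to primitive endoderm. Among the transcription factors Sox7 was above background on 6 arrays, Gata6 on 4, Gata4 on 1 and Sox17 on none, so the arrays do not show the whole set of lineage factors. The epiblast factors Pou5f1 and Nanog were bright in every line, at 12.33 ± 0.20 and 12.43 ± 0.25 in tNT lines (SD, n = 6) and 12.55 ± 0.05 and 12.06 ± 0.00 in NT lines (SD, n = 2). Bulk arrays cannot tell fewer cells of a type from less RNA per cell.

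Gata6 had lower values in the tNT lines than in the NT lines, without passing the threshold. Its log2 intensity was 5.38, 6.00, 4.93, 4.95, 5.33 and 4.83 in tNT lines 1 to 6, against 6.59 and 6.37 in NT lines 1 and 2. All 6 tNT values lay below both NT values, and tNT line 2 came nearest to them. It was above background on both NT arrays and on those of tNT lines 1 and 2 only, so 4 of the 6 tNT values were not well above background. The mean was 5.24 ± 0.43 in tNT lines (SD, n = 6) and 6.48 ± 0.15 in NT lines (SD, n = 2), a log2 difference of -1.25 with a 95% interval of -1.87 to -0.62. Since the tNT mean lay below the lowest value above background, the size of this difference depends on the treatment of dim probes. The adjusted p was 0.0576 in limma's moderated test over all 8816, at an unadjusted p of 0.00127. The call turned on settings and lines: quantile normalization without background correction gave -0.50 with an adjusted p of 0.0447, the authors' processed values gave -1.88 with 0.101, and the fit without tNT line 2 gave -1.40 with 0.00548. Without NT line 1 or NT line 2 the adjusted p was 0.389 or 0.357.

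Sox7, a factor of the SoxF family that acts with Sox17, had the opposite sign and was higher in tNT lines, again without passing. It measured 5.80, 5.70, 5.45, 6.59, 7.06 and 6.70 in tNT lines 1 to 6, against 5.04 and 5.42 in NT lines 1 and 2. The 3 tNT lines numbered 4 to 6 were the highest, and tNT line 3 lay just above NT line 2. The mean was 6.22 ± 0.65 in tNT lines (SD, n = 6) and 5.23 ± 0.27 in NT lines (SD, n = 2), a log2 difference of 0.99 with an interval of 0.09 to 1.89 (limma, adjusted p = 0.229). It was above background on 5 of the 6 tNT arrays and on 1 of the 2 NT arrays.

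A second, dimmer probe of Sox7 also had its 3 highest values in tNT lines 4 to 6. It measured 4.92, 4.57, 4.52, 5.52, 5.29 and 5.29 in tNT lines 1 to 6, against 4.57 and 4.76 in NT lines 1 and 2, and was above background in tNT line 4 only. Over the 8 arrays the pair of Sox7 probes correlated with r = 0.90. The endothelial and blood progenitor markers as a sum were not highest where Sox7 was: their summed normalized intensity on the linear scale was 996, 1238 and 1313 in tNT lines 4 to 6, 1292, 1814 and 1381 in tNT lines 1 to 3, while NT lines had 1356 and 1291. Of these 18 markers 9 were tested, Flt1 alone passed, lower in tNT lines (adjusted p = 0.00400), and Cdh5, Kdr, Cd34, Erg, Tal1, Gata1 and Sox18 were not above background on any array. Among these markers Gata2 was at 7.51 and 7.53 in tNT lines 5 and 6 and between 6.54 and 6.90 in tNT lines 1 to 4. In NT lines 1 and 2 it was at 7.48 and 7.30, so it was high with Sox7 in some tNT lines and without it in NT lines. Flt1 and Gata2 made up a minor part of the sum on every array, and the part of these markers in the Sox7 values was not tested. The summed intensity of the cardiac mesoderm markers was 385, 525 and 508 in tNT lines 4 to 6, 296, 376 and 319 in tNT lines 1 to 3, and NT lines had 327 and 392. Only Actc1, Tnnc1 and Myl4 of those 14 were tested, Actc1 passed, lower in tNT lines (adjusted p = 0.0316), 9 including Nkx2-5 and Tbx5 were not above background on any array, and their part in the Sox7 values was not tested. Myl4, an atrial myosin light chain, made up most of that sum and was highest in tNT lines 4 to 6, at 8.34, 8.85 and 8.83, against 7.44 and 7.92 in NT lines 1 and 2. Actc1 was lowest in those 3 lines, but its values there lay under the lowest value above background. It was above background on 1 tNT array only, and Tnnc1 on no tNT array.

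Gata4, the partner of Gata6 in early endoderm, gave a log2 intensity of 4.69, 4.80, 4.64, 4.96, 4.83 and 4.89 in tNT lines 1 to 6, against 5.65 and 5.12 in NT lines 1 and 2. The NT values were the highest, and NT line 1 was the only array above background, so no fold is given. Sox17 had 2 probes, which stood between 4.29 and 4.98 in tNT lines and between 4.56 and 4.98 in NT lines. Neither of them was above background on any array, and the ranges of the groups overlapped.

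**Figure D1:**
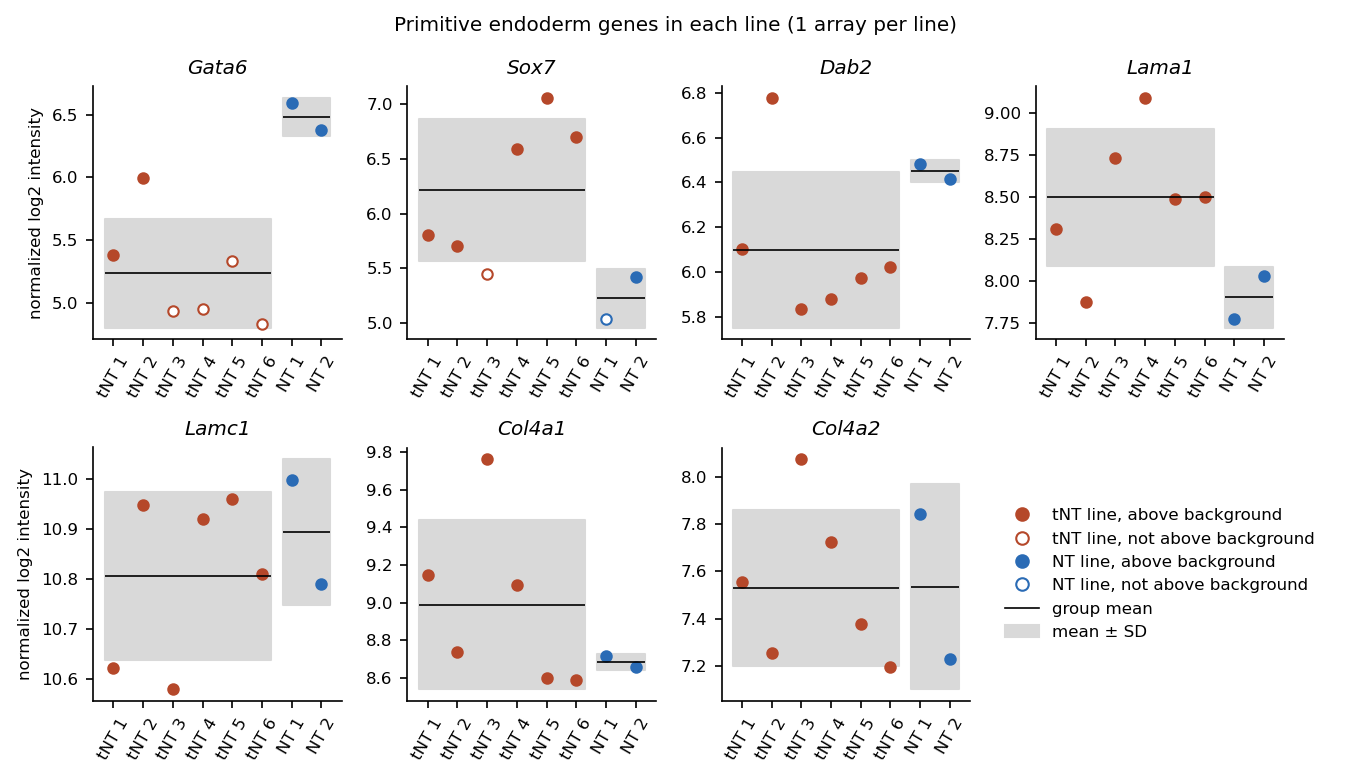
Normalized log2 intensity (vertical axis) of the 7 tested genes in each line (horizontal axis), with 6 tNT lines in red and 2 NT lines in blue. Lines and grey bands give the group mean ± SD, and open points are not above background. Gata6 is lower in all 6 tNT lines than in both NT lines, and Sox7 is highest in tNT lines 4 to 6.

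Dab2, which links receptors of the megalin and LDL receptor family to clathrin, is needed for endocytosis in visceral endoderm. Its brightest probe measured 6.10, 6.78, 5.83, 5.88, 5.97 and 6.02 in tNT lines 1 to 6, against 6.48 and 6.41 in NT lines 1 and 2. All tNT lines but line 2 lay below both NT lines, and line 2 lay above them. The mean was 6.10 ± 0.35 in tNT lines (SD, n = 6) and 6.45 ± 0.05 in NT lines (SD, n = 2), a log2 difference of -0.35 with an interval of -0.86 to 0.16 (limma, adjusted p = 0.462). Without tNT line 2 it was -0.49 with an adjusted p of 0.0378. A second probe, annotated to another RefSeq transcript, measured 6.21, 6.51, 5.47, 5.60, 6.21 and 5.96 in tNT lines 1 to 6, against 6.06 and 6.45 in NT lines 1 and 2. It also had its highest value in tNT line 2 and its lowest in lines 3 and 4, with r = 0.77 between the probes over 8 arrays. The third probe was not above background on any array.

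Dab2 is a known target of GATA factors in endoderm, and its values went with those of Gata6 across the lines. Over the 8 lines the correlation was r = 0.83 (Spearman's rho 0.79), and between 0.80 and 0.95 with any 1 of the 8 left out. Within the 6 tNT lines it was r = 0.90 (rho 0.66). There tNT line 2 held the highest value of both genes, and leaving out 1 line was not tried within that group. Without the 2 tNT lines farthest from the Gata6 median of that group, tNT line 2 among them, r was 0.92 over the few lines left. Both share the same arrays and their normalization, and both lie near the lower end of the intensities. RefSeq lists 2 start windows of Dab2 in mouse build GRCm38.p6, each from 250 bases before to 50 after a start site. The upstream one, at chr15:6299539-6299838 on the + strand, is shown because it holds the letters AGATAA or TGATAA, searched on both strands and given in capitals.

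Dab2 upstream window: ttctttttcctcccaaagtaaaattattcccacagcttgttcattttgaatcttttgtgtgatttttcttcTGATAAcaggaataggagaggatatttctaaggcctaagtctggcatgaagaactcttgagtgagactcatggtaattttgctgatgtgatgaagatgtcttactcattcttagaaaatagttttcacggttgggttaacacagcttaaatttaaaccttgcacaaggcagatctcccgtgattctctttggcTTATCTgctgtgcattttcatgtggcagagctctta

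The first match begins at position -179 from the start site and the other, on the opposite strand, at position 14. The window at chr15:6386498-6386797 holds neither set of letters. Of 32851 RefSeq windows of the same length 18.6% hold at least 1, and a match is a description of letters, not of binding. RefSeq windows were searched for 4 of the 10 members: Dab2, Lamb1, Col4a1 and Col4a2. Chromosome 18, where Gata6 lies, was left out of the search of the members, so no window of Gata6 was looked at.

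The laminin chains Lama1, Lamb1 and Lamc1 form the trimer of the first embryonic basement membranes. Lama1, whose chain carries the receptor-binding end, measured 8.31, 7.88, 8.74, 9.09, 8.49 and 8.50 in tNT lines 1 to 6, against 7.77 and 8.03 in NT lines 1 and 2. It was highest in tNT lines 4 and 3, and tNT line 2 alone fell between the NT lines. The mean was 8.50 ± 0.41 in tNT lines (SD, n = 6) and 7.90 ± 0.18 in NT lines (SD, n = 2), a log2 difference of 0.60 with an interval of 0.01 to 1.19 (limma, adjusted p = 0.273). Of the 7 tested, Lamc1 was the brightest probe and had the smallest SD over tNT lines. It measured 10.62, 10.95, 10.58, 10.92, 10.96 and 10.81 in tNT lines 1 to 6, against 10.998 and 10.79 in NT lines 1 and 2. The groups overlapped, with a log2 difference of -0.09 and an interval of -0.41 to 0.24 (adjusted p = 0.809). The single probe of Lamb1 lay between 4.45 and 5.07 in tNT lines and at 4.71 and 4.53 in NT lines, below background throughout.

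Lama1 ran against Gata6 and Dab2. Its correlation with Gata6 was r = -0.88 (rho -0.88) over the 8 lines and r = -0.84 (rho -0.77) over the 6 tNT lines, and with Dab2 r = -0.89 (rho -0.93) and r = -0.87 (rho -0.89). Over the 8 lines, without any 1 of them, the first lay between -0.92 and -0.83 and the other between -0.94 and -0.88. Leaving out 1 line was not tried within the tNT lines alone, where tNT line 2 held the extreme value of each gene. Without the 2 tNT lines farthest from the tNT median of Gata6, tNT line 2 among them, its r with Lama1 was -0.88. Without the 2 farthest for Dab2, again with tNT line 2, its r with Lama1 was -0.93, each over few lines. Over all 8 lines, the 2 farthest from the median of Gata6 were the NT lines, so leaving them out only repeats the tNT value of -0.84. The 2 farthest for Dab2 were tNT line 2 and NT line 1, and without them its r with Lama1 was -0.87. Lama1 thus had nearly the opposite order across the lines to Gata6 and Dab2, and tNT line 2 stood at the NT end of all 3 genes.

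**Figure D2:**
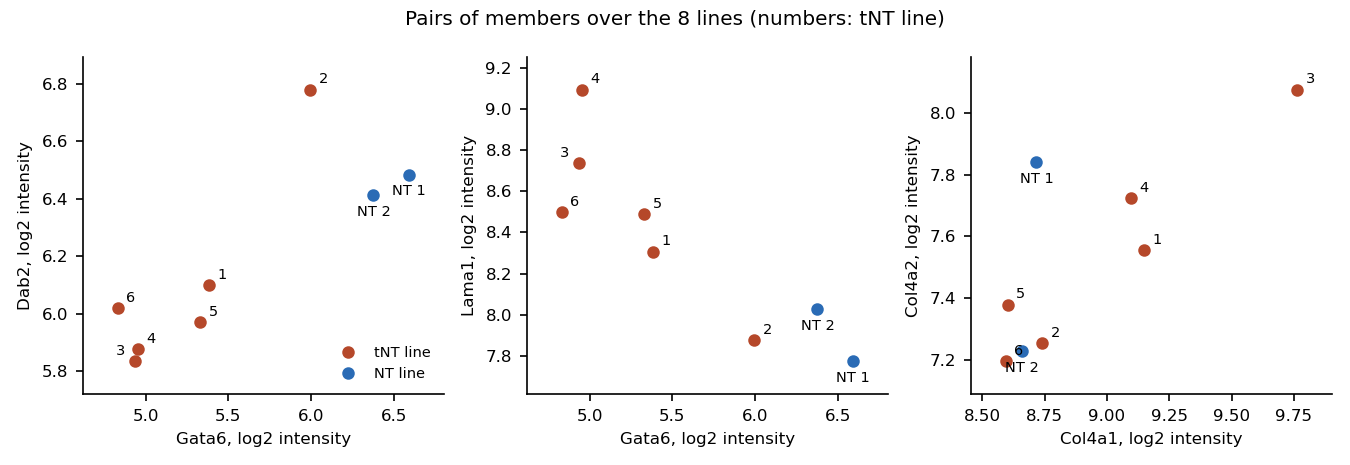
Log2 intensities of Gata6 and Dab2, Gata6 and Lama1, and Col4a1 and Col4a2 in the 6 tNT lines (red, numbered) and the 2 NT lines (blue), 1 point per line. Dab2 goes up with Gata6, Lama1 goes down, and the collagen chains go together in tNT lines while NT line 1 stands off.

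Fibroblast markers, from cells often used as feeders, had a summed normalized intensity of 3985, 5328, 2909, 2685, 3179 and 2889 in tNT lines 1 to 6, against 4243 and 3860 in NT lines 1 and 2. The sum was thus high in the lines where Gata6 and Dab2 were high and Lama1 low, though not through all markers alike. The part of these markers in the Gata6, Dab2 and Lama1 values was not tested. Of the 20 markers 11 were tested, 7 with higher and 4 with lower values in tNT lines and a median log2 difference of 0.05, and none passed. The markers Col1a2, Col3a1, Col5a2, Col6a2, Pdgfrb, Postn and S100a4 were not above background on any array. Acta2, smooth muscle actin, was at 11.01 in tNT line 2 and between 9.96 and 10.70 in the other tNT lines. In NT lines 1 and 2 it was at 11.21 and 11.08 (limma, adjusted p = 0.161), and there it made up most of the sum. Thy1, also on this list, was lower in both NT lines than in every tNT line, narrowly in NT line 2 (limma, adjusted p = 0.440). Col1a1, a fibrillar collagen chain, measured 6.85, 6.95, 5.77, 6.04, 6.51 and 6.40 in tNT lines 1 to 6, against 6.39 and 6.30 in NT lines 1 and 2. It was highest in tNT lines 1 and 2, with a log2 difference of 0.07 between the groups (adjusted p = 0.927).

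Col4a1 and Col4a2 encode the chains of the collagen IV network, and their genes lie head to head. Col4a1 measured 9.15, 8.74, 9.76, 9.10, 8.60 and 8.59 in tNT lines 1 to 6, against 8.72 and 8.66 in NT lines 1 and 2. It was highest in tNT line 3, and tNT lines 5 and 6 lay just below both NT lines. The log2 difference was 0.30 with an interval of -0.33 to 0.93 (limma, adjusted p = 0.6246), and it was 0.15 without tNT line 3. Col4a2 measured 7.55, 7.25, 8.08, 7.72, 7.38 and 7.19 in tNT lines 1 to 6, against 7.84 and 7.23 in NT lines 1 and 2. NT line 1 was near the top of all 8 values and NT line 2 near the bottom, so the groups overlapped, with a log2 difference of -0.01 and an interval of -0.56 to 0.55 (adjusted p = 0.993). Its sign turned with the setting: it was 0.30 without NT line 1 and -0.31 without NT line 2.

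Within the 6 tNT lines the collagen chains kept nearly the same order, with r = 0.95 (rho 0.89). Over all 8 lines r was 0.79 (rho 0.74), and it was between 0.55 and 0.96 with any 1 line left out. Leaving out the 2 lines farthest from the median of Col4a1 gave 0.59 over all lines and 0.81 within tNT lines. The RefSeq start windows of the pair are shown because they overlap at one end: they lie on opposite strands of chromosome 8 in GRCm38.p6, at chr8:11312777-11313076 (Col4a1, - strand) and chr8:11312555-11312854 (Col4a2, + strand). Capitals mark CCAAT and GGGCGG on either strand.

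Col4a1 window: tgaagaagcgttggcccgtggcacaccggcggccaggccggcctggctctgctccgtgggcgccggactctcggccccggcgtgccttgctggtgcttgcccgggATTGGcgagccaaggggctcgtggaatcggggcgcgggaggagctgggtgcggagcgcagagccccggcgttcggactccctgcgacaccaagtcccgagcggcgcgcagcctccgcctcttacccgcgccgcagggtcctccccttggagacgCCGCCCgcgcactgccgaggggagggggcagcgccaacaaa
Col4a2 window: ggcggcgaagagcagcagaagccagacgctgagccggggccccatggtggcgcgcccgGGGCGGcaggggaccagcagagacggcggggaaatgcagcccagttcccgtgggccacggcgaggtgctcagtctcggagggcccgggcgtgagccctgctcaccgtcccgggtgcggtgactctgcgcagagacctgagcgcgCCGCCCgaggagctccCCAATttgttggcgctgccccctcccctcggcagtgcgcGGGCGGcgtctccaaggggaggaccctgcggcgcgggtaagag

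The windows overlap by 78 bases, and the listed start sites are 21 bases apart. Col4a1's window holds 1 CCAAT and 1 GGGCGG, and that of Col4a2 holds 1 CCAAT and 3 GGGCGG. Of all RefSeq windows of this length 37.4% hold CCAAT and 35.7% hold GGGCGG, so neither is particular to these genes. AGATAA and TGATAA are in neither window.

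Taking the members as a set, 0 of the 7 tested passed an adjusted p of 0.05 in limma, where 1.86% of all 8816 did. At an unadjusted p under 0.05 there were 3, Gata6, Sox7 and Lama1, where 18% of all genes had one. The groups did not overlap for 2 of the 7, Gata6 and Sox7, against 21.7% of all genes. Gata6 lay wholly below, as 10.4% of all genes did, and Sox7 wholly above, as 11.3% did. In tNT lines 3 of the 7 were higher and 4 were lower. Their median log2 difference was -0.01, and that of all genes was 0.01. The set thus had no common direction between tNT and NT lines. The count of members past the threshold was 0 to 4 over the alternatives tried. It was 2 without tNT line 2, where Gata6 and Dab2 passed among 6.6% of all genes, and 4 with array weights, where 15.7% of all genes passed.

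**Figure D3:**
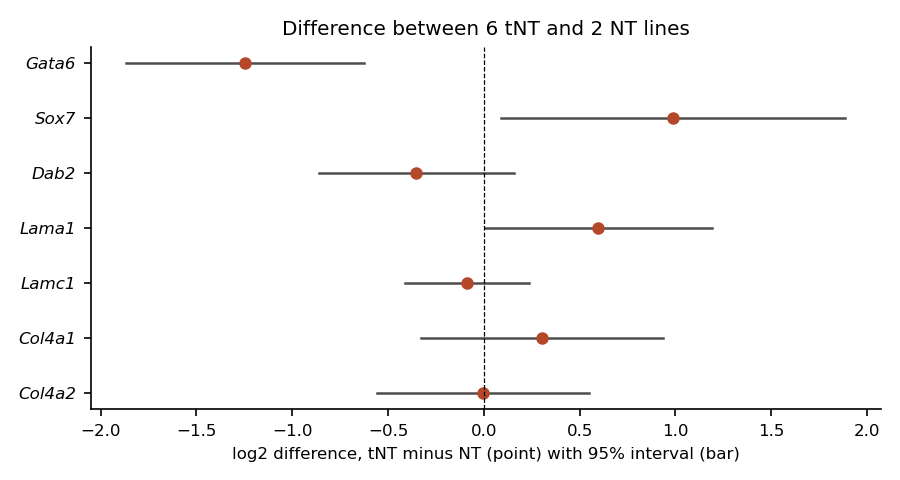
Log2 difference between 6 tNT and 2 NT lines (horizontal axis, tNT minus NT) for the 7 tested genes, with 95% intervals from limma. The intervals of Gata6, Sox7 and Lama1 leave out 0 before adjustment for multiple tests, and none of the 7 passed after it.

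Among themselves the tNT lines differed more in these genes than in most. The SD over the 6 tNT lines was 0.65 for Sox7, 0.45 for Col4a1, 0.43 for Gata6, 0.41 for Lama1, 0.35 for Dab2, 0.33 for Col4a2 and 0.17 for Lamc1. The median SD was 0.41 for the 7 members and 0.22 for all genes tested, and without background correction the medians were 0.23 and 0.14. All but Lamc1, 6 of 7, were above the 75th percentile of all genes, where 25% lie by construction. Genes of like brightness were not compared. By mean intensity Gata6, Sox7 and Dab2 lay at percentiles 11, 19 and 23 of all genes, and the other members between 45 and 88. The median of the 7 ran from 0.30 to 0.45 with 1 tNT line left out. The line with the extreme value was not the same throughout, being tNT line 2 for Gata6, Dab2 and Lama1, line 3 for Lamc1, Col4a1 and Col4a2, and line 5 for Sox7.

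Passage was the only numbered difference between tNT lines. In limma no gene of the 8816 passed for a slope over passage, so the share was 0% and 0 of the 7 members passed. At an unadjusted p under 0.05 there were 2 of 7, Lama1 and Gata6, where 4.44% of all genes had one. Lama1 had a slope of 0.07 log2 units per passage, with an interval of 0.01 to 0.12 (adjusted p = 0.994). Its level was 8.74, 9.09 and 8.50 in tNT lines 3, 4 and 6, at passage 25 to 29, against 8.31, 7.88 and 8.49 in tNT lines 1, 2 and 5, at passage 17 to 19. Gata6 had a slope of -0.06, with an interval of -0.13 to -0.00 (adjusted p = 0.994). Its value was 4.93, 4.95 and 4.83 at passage 25 to 29, on 3 arrays not above background, against 5.38, 6.00 and 5.33 at passage 17 to 19. In both genes the later and earlier lines did not overlap, narrowly so in Lama1, which held for 8.71% of all genes. The later lines lay wholly above, as for Lama1, in 3.85% of all genes and wholly below, as for Gata6, in 4.87%. All 11 tested fibroblast markers had a negative slope over passage, as 4483 of the 8816 did, and Col1a1 too was lower in each line at passage 25 to 29 than in each at passage 17 to 19. Their part in the Gata6 slope was not tested. The other slopes were -0.04 for Dab2, 0.02 for Sox7, 0.03 for Col4a1, 0.03 for Col4a2 and 0.00 for Lamc1.

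**Figure D4:**
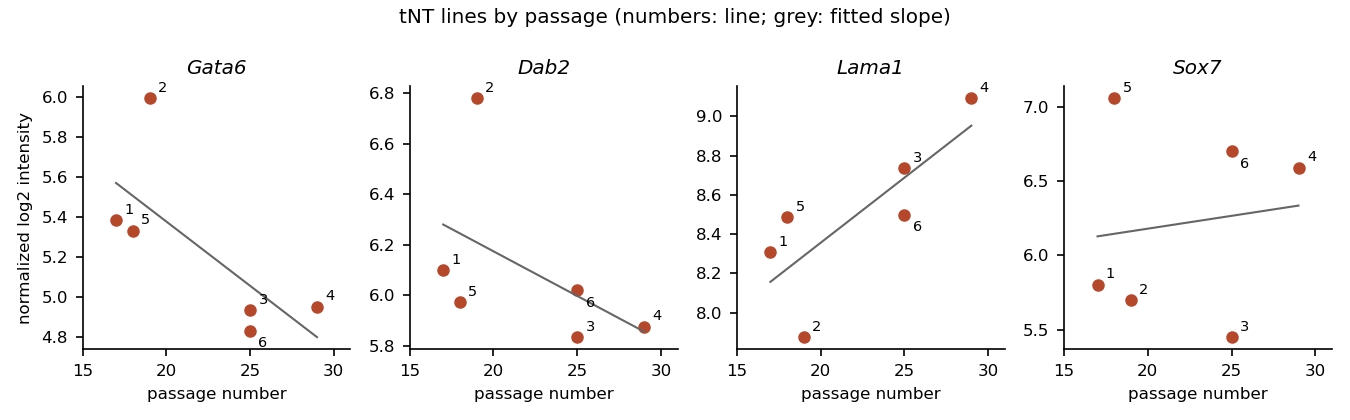
Log2 intensity (vertical axis) against passage number (horizontal axis) in the 6 tNT lines for Gata6, Dab2, Lama1 and Sox7, with line numbers at the points and the fitted slope in grey. The 3 lines at passage 25 to 29 lie below the others for Gata6 and above them for Lama1, and tNT line 2 is the extreme of Gata6, Dab2 and Lama1.

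The Gata6 difference was given apart by passage too. None of the 3 tNT lines at passage 25 to 29 was above background, so against them only a bound is given: Gata6 was at least 2.03-fold lower in these lines than in the NT lines. With only the tNT lines at passage 17 to 19, 2 of them above background, the log2 difference was -0.91 (limma, adjusted p = 0.200).

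Other regulators of the lineage choice include genes that act for and against primitive endoderm. Of 14 such genes 10 were tested, with 5 higher and 5 lower values in tNT lines, and 2 passed, where 1.86% of all genes did. Foxq1, a forkhead factor, measured 5.70, 5.72, 6.14, 6.16, 5.77 and 5.73 in tNT lines 1 to 6, against 7.04 and 7.23 in NT lines 1 and 2. It was 2.41-fold lower in tNT lines (limma, adjusted p = 0.00753), with no overlap. Klf5, which favours epiblast over primitive endoderm in the mouse blastocyst, was 12.85 ± 0.05 in tNT lines (SD, n = 6) and 12.27 ± 0.10 in NT lines (SD, n = 2), higher by 0.59 (adjusted p = 0.0301). Pdgfra and Foxa2, markers of the lineage and of endoderm, were not above background on any array.

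Of 22 genes on the list of visceral endoderm products 19 had a probe, and 10 of these, with Afp, Ttr, Rbp4, Apoa1 and Apoa4 among them, were not above background on any array. The 7 tested had 5 lower values, and none passed. Spink1, a trypsin inhibitor, had values of 6.89, 7.83, 5.50, 5.73, 5.99 and 5.82 in tNT lines 1 to 6, against 8.03 and 7.66 in NT lines 1 and 2. Among the tNT lines it was highest in line 2, then in line 1 and then in line 5, as Gata6 was (adjusted p = 0.165). Dpp4, a surface peptidase, was 8.60 ± 0.15 in tNT lines (SD, n = 6) and 8.06 ± 0.06 in NT lines (SD, n = 2), with no overlap and an adjusted p of 0.0774. Of 14 parietal endoderm genes 7 were tested, 6 with lower values, and none passed. Sparc, a matrix protein of that layer, differed by -0.23 (adjusted p = 0.505), and Thbd and Plat were not above background on any array. Krt19 was above background on both NT arrays and on no tNT array, so it entered through the NT lines alone and had to differ. It was at least 1.34-fold lower in tNT lines.

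Other parts of the basement membrane mostly had lower values in tNT lines. Of 22 listed genes 8 were tested, 7 of them lower, and none passed. Their median log2 difference was -0.25, where that of all genes was 0.01 and 4331 of the 8816 were lower. Agrn, a heparan sulphate proteoglycan, measured 11.55, 11.19, 11.88, 11.55, 11.35 and 11.24 in tNT lines 1 to 6, against 12.00 and 11.99 in NT lines 1 and 2 (adjusted p = 0.155). Hspg2, perlecan, had a difference of -0.39 (adjusted p = 0.176), and Nid2, which bridges laminin and collagen IV, had -0.26 (adjusted p = 0.438). The groups did not overlap for Agrn and Hspg2, as was so for 21.7% of all genes. Among 26 genes of collagen processing and matrix receptors 18 were tested, with 10 higher and 8 lower values. The laminin receptor chain Itga3 was the only one that passed, at 7.39 ± 0.20 in tNT lines (SD, n = 6) and 8.33 ± 0.03 in NT lines (SD, n = 2), 1.92-fold lower (adjusted p = 0.0201). Bcam, another laminin receptor, differed by -0.61 (adjusted p = 0.0693), and Plod2, a lysyl hydroxylase of collagens, by 0.68 (adjusted p = 0.115).

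Genes that act with Dab2 in endocytosis gave 8 higher and 4 lower values among 12 tested of 20, and none passed. Itsn1, a scaffold of clathrin pits, entered through tNT arrays alone, being above background on 5 of them, and so had to differ. Its tNT level was at least 1.30-fold higher. Of 18 genes of the Fgf and Erk input 13 were tested, with 4 higher and 9 lower values. Fgf5, a growth factor of the later epiblast, alone passed, lower in tNT lines (adjusted p = 0.0176). It was above background on both NT arrays but on 2 tNT arrays only, and its tNT mean of 5.10 lay below the lowest value above background. Fgf4, the ligand that drives the lineage choice, was 7.36 ± 0.30 in tNT lines (SD, n = 6) and 6.85 ± 0.08 in NT lines (SD, n = 2), with an adjusted p of 0.216. Nanog, which opposes Gata6 in the inner cell mass, measured 12.64, 11.97, 12.42, 12.57, 12.42 and 12.59 in tNT lines 1 to 6, against 12.06 and 12.06 in NT lines 1 and 2. It was lowest in tNT line 2, the tNT line where Gata6 was highest, and that line alone lay below both NT lines (adjusted p = 0.299). All 10 pluripotency genes with a probe were tested, 8 had higher values in tNT lines, and none passed. Of the 10 definitive endoderm genes 6 were tested. Lhx1 was at least 1.61-fold lower in tNT lines, but it entered through the NT arrays alone and so had to differ, and no other gene of the list passed. Of 14 trophoblast markers 8 were tested, with 2 higher and 6 lower values, and 2 passed, where 1.86% of all genes did. These were the keratins Krt8 and Krt18, which extraembryonic endoderm also makes, both lower in tNT lines (limma, adjusted p = 0.00505 and 0.00464). The summed intensity of the list overlapped, at 4316 to 8643 in tNT lines and 7234 and 7506 in NT lines.

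The genes most like the members' patterns were sought over the 8 lines by Pearson's r, as a description. The mean deviation of Lama1, Lamc1, Col4a1 and Col4a2 was 0.00, -0.20, 0.38, 0.30, -0.05 and -0.13 in tNT lines 1 to 6 and -0.07 and -0.23 in NT lines 1 and 2. Not all of these members share this pattern: over the 8 lines Lamc1 had r = -0.29 with Lama1, -0.72 with Col4a1 and -0.29 with Col4a2. The highest r with the mean deviation belonged to Dzip1 (0.99), Islr2 (0.97), Zfp951 (0.95), Klk13 (0.94) and Pigt (0.94). Islr2 measured 6.51, 5.94, 8.08, 7.40, 6.43 and 6.28 in tNT lines 1 to 6, against 5.98 and 5.91 in NT lines 1 and 2, so it too was highest in lines 3 and 4. For the mean of Gata6 and Sox7, which ran in opposite directions between the groups, they were Lsm5 (0.97), Mllt11 (0.95), Cphx1 (0.94), Ebag9 (0.93) and an unnamed probe (0.93). None of these 10 passed between tNT and NT lines, and such r values are the highest among 8816 over 8 points.

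**Figure D5:**
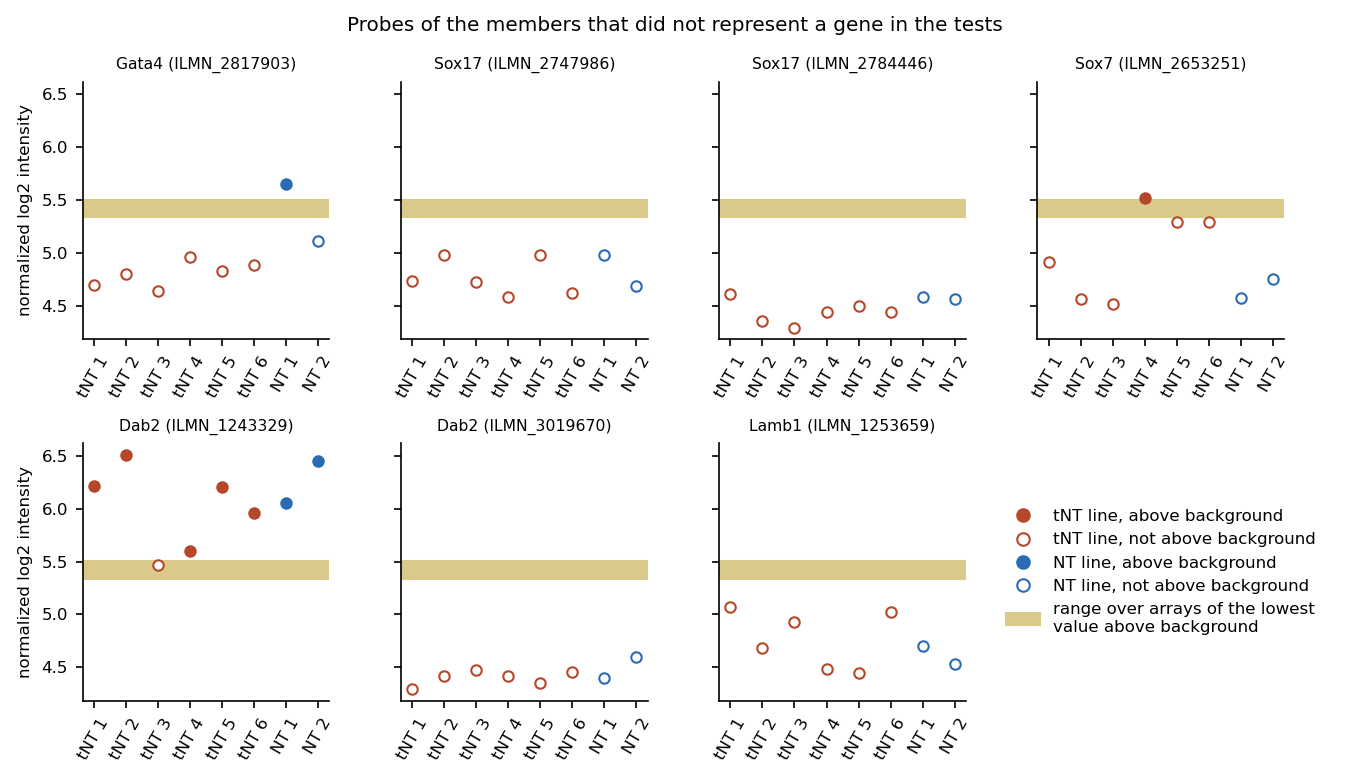
Normalized log2 intensity (vertical axis) in each line (horizontal axis) of the 7 member probes that stood for no gene in the tests, with 6 tNT lines in red and 2 NT lines in blue. Open points are not above background, and the band is the range over arrays of the lowest value above background. Gata4 crosses it in NT line 1 only, Sox7's second probe in tNT line 4 only, and the second probe of Dab2 on most arrays.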

How the data were processed

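Labelled cRNA of 6 tNT and 2 NT lines was measured on Illumina bead arrays, per the labels. The deposited table holds a linear intensity per probe and array with a detection p-value beside each, per the file headers, and its lowest values show no subtraction of background. A second table holds the authors' processed log2 values of the same arrays, with 1 common distribution. BeadStudio 3.2, RMA and lumi are listed in the submitters' processing notes, without saying what each did.

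Intensities were normalized by the neqc function of limma 3.58.1 under R 4.3.3, with an offset of 16, and compared with lmFit and eBayes, 2-sided, with Benjamini-Hochberg adjustment over all 8816 tested and a threshold of 0.05. Quantile normalization does not measure total RNA per cell. Of 25697 probes 23978 are named with 1 gene, none with several and 1719 with none, and 23962 were matched to RefSeq by gene identifier. No build is named for the array, so coordinates are given for RefSeq windows (GRCm38.p6) only. The fits were tested on simulated data. A fold against a group with no array above background is a bound against the higher of the probe's own value and the lowest value above background, per array.

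The members and lists were chosen with earlier results of these data known. Named genes are the members, up to 4 of smallest p per list with those past the threshold, the 5 most alike per pattern, and Pou5f1, Nanog and Col1a1. Genes listed as not above background were named after their values were seen. Line numbers did not pair the groups (r = 0.04 between deviations of tNT and NT line 1, and 0.00 for line 2). Alternatives covered normalization, filters, probes, variance, weights, left-out lines, a block and passage. Figures were drawn with matplotlib 3.10.9 (Python 3.11.15).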

Additional observations from a re-analysis of the deposited data

Results flagged for a closer look

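Dab2 was noted for 1 line far from the others: tNT line 2, at 6.78, had a gap to the next tNT line of 0.719 of the range of the 6 tNT lines, above Dixon's 95% limit for a group of 6. Chance gives about 1 such result in 20 independent sets of values, and 7 genes were looked at. These genes share the same arrays, and the cause of this result was not tested. The second Sox7 probe, which stood for no gene in the tests, was above background in tNT line 4 at a log2 intensity of 5.52 and on neither NT array, where it measured 4.57 and 4.76.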

How the results depend on the processing

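The count of members past the threshold between tNT and NT lines, 0 of 7, was 1 without background correction, with an offset of 50, with the trend and robust variance, and with tNT lines at passage 25 to 29, and Gata6 was the gene each time, in the last setting against tNT arrays not above background. It was 4 with array weights and 3 without tNT lines 1 to 3, where 11.8% of all genes passed. That choice was made once the data were known, and since these lines hold the lowest Sox7 values among tNT lines it fixed a larger Sox7 difference. Leaving out 1 line gave 0 to 2. It was also 0 with every other setting run, including the authors' values, the 3 other detection filters and every probe. The median log2 difference of the members ran from -0.19 to 0.30 with 1 line left out and moved under no other setting by more than the lines' own spread. The median SD among tNT lines was 0.23 without background correction and 0.28 with an offset of 50, and 0.30 to 0.45 with 1 tNT line left out.

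Signs turned in members near 0. The Col4a2 difference was 0.00882 with median scaling, 0.13 with tNT lines at passage 25 to 29, 0.0927 without tNT lines 4 to 6, and -0.31 to 0.30 with 1 line left out. The Lamc1 difference was 0.00239 without tNT lines 1 to 3 and -0.19 to 0.0160 with 1 line left out. The Lamc1 slope was -5.94e-04 with median scaling, -0.00101 with cyclic loess and -0.0152 to 0.00806 with 1 tNT line left out, and the Sox7 slope was -0.0172 to 0.0648. The causes were not tested. No member passed for passage under any of the 17 settings run, and with array weights for passage the estimation stopped before it converged.

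With the line number as a replicate block the count was 0, the median difference -0.01 and the Gata6 difference -0.79 (adjusted p = 0.137). No NT line shares a number with tNT lines 3 to 6, so these differences rest on lines 1 and 2 of each group. Of all 8816 tested, 164 passed. That count was 1381 with array weights, 1044 without tNT lines 1 to 3, 50 without tNT lines 4 to 6, 27 with tNT lines at passage 17 to 19, 582 without tNT line 2, 80 to 97 without another tNT line, and 6 or 7 without NT line 1 or 2, where the lone NT array was assumed to vary as the others do. Signal near background limits Gata6, Sox7 and Dab2.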
